A study of Mus musculus with 12 samples.

Results

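Ribosome biogenesis genes encode the nucleolar machinery that makes ribosomes, and their transcripts are described here in T cells stimulated in mice with a strong or a weak peptide at a high or a low dose. The list held 43 genes, and a gene was followed through the probe sets whose only gene symbol in the platform annotation was its own. A probe set is a group of array probes read as 1 value. This found 41 of the 43 genes, on 77 of the array's 22690 probe sets, and the probe sets of all 41 genes passed the filter on low signal that left 13556 probe sets of 7945 genes. Dkc1 and Mrto4, the other two, were not analysed here. A gene with more than 1 probe set was represented by its brightest, judged by the mean over all arrays. The list was chosen with earlier results of these data known. Setting its genes beside all genes therefore describes a pattern and does not test it.

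The T cells came from 5CC7 mice, which carry a transgenic T cell receptor for a peptide of moth cytochrome c. They were given by the tail vein to B10.A recipients, which then had an injection of peptide in PBS by the same route. Per the labels MCC is a strong and 102S a weak agonist of this receptor, and each was given at a low dose of 0.2 µg or a high dose of 2 µg, which makes 4 groups of 3 arrays. Lymph nodes were pooled and the transferred cells were purified by flow cytometry 48 h after the injection, and all 12 arrays are of cells from peptide-treated mice. The age and sex of the mice are not in the labels, and no group without peptide was analysed here. The values are log2 signals as deposited. All ± values beside a difference are standard errors of the limma fit, those beside a group mean are standard deviations over 3 arrays, and a gene was called where its Benjamini-Hochberg adjusted p was under 0.05.

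Ribosomes are built in the nucleolus, where RNA polymerase I transcribes the ribosomal RNA precursor, small nucleolar ribonucleoproteins guide the chemical modification of that RNA, and large sets of assembly factors cleave and fold it into the small and the large subunit. A resting T cell is small and makes few ribosomes. After its receptor is engaged it enlarges and makes many more before and during its first divisions, and the transcription factor Myc is known to drive many of these genes through the E-box motif CACGTG.

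The promoter windows of the members were searched for the E-box that Myc binds. A window ran from 250 bases before to 50 bases after a RefSeq transcript start on GRCm38.p6, and CACGTG reads the same on both strands. Of 36 listed genes with a window, 8 held the motif, a share of 22.22%. Among 95 other ribosome biogenesis genes with a window the share was 18.95%. It was 12.16% among 6496 genes tested on the arrays with a window and 8.09% among all 27025 genes with a window. Counted by window and not by gene, it was 7.15% over all 32851 windows of 300 bases. The 30 bases around the motif are printed 5′ to 3′ on the gene's strand, with the motif in capitals.
Mybbp1a chr11:72441347-72441376 plus strand: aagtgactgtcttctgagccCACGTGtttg
Imp4 chr1:34439696-34439725 plus strand: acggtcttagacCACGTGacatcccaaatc
Wdr43 chr17:71616220-71616249 plus strand: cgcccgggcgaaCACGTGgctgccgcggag
Tsr1 chr11:74898092-74898121 plus strand: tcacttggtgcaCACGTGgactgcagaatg
Pes1 chr11:3963965-3963994 plus strand: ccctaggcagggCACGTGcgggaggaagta
Nop2 chr6:125131811-125131840 plus strand: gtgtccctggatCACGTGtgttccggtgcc
Nle1 chr11:82908355-82908384 minus strand: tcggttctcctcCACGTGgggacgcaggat
Grwd1 chr7:45830740-45830769 minus strand: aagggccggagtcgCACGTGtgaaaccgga
In 6 of these genes, Mybbp1a, Wdr43, Tsr1, Pes1, Nle1 and Grwd1, the motif lay after the transcript start of the window, within the transcribed first bases, and in Imp4 and Nop2 it lay before the start. The windows of Wdr43, Nle1 and Grwd1 begin from a transcript start other than the gene's outermost one. Of these 8 genes, Mybbp1a, Wdr43 and Grwd1 were called in at least 1 comparison below, while Imp4, Tsr1, Pes1, Nop2 and Nle1 were called in none. A letter match is a description and shows no binding.

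Array medians lay between 5.17 and 5.26 log2, and replicates of a group correlated at 0.977 to 0.995 over all probe sets. The T cell genes Cd3e and Cd3d were high on every array, at 10.01 to 10.23 and 12.71 to 13.06. The mean over 5 T cell markers was 10.56 to 10.83. Cd4, whose own level is not given here, was called in no comparison. It differed by 0.49 and 0.05 log2 between peptides at 2 and 0.2 µg, and by 0.56 and 0.12 with the doses of MCC and 102S. The B cell gene Cd79a stayed at or under 4.49 and myeloid and erythroid markers at or under 5.89. Ighm, another B cell marker, was high and is described below. Xist lay between 11.7 and 12.3 on the replicate 1 array of each group and at or under 5.10 on the others, and the Y-linked Eif2s3y showed the reverse, so replicate 1 held cells of female type and replicates 2 and 3 cells of male type. The β-actin control was read by probe sets at its 3′ and 5′ ends, whose gap, which widens as labelling reaches less far along a transcript, was 2.35 log2 on replicate 3 of 0.2 µg of 102S and 1.78 and 2.33 on replicates 2 and 3 of 0.2 µg of MCC, against at most 1.62 on the other 9 arrays. Counts of called genes are given with the male-type arrays alone and without those 3 wide-gap arrays where they move. The labels do not say whether replicates were separate mice, so p-values measure the spread between these samples only.

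Across the groups the ribosome biogenesis genes were highest with the weaker stimulus. On each array the median of the 41 genes was taken. It lay between 7.95 and 8.03 on the low-dose 102S arrays, between 7.57 and 7.72 on the high-dose 102S arrays, between 7.48 and 7.72 on the low-dose MCC arrays and between 7.11 and 7.45 on the high-dose MCC arrays. The arrays of 0.2 µg of 102S stood above all others and those of 2 µg of MCC below all others, whereas the middle groups overlapped. Of the 41 genes, 33 had their highest group mean with 0.2 µg of 102S and 29 their lowest with 2 µg of MCC. The highest mean of another 6 was with 0.2 µg of MCC and of 2 with 2 µg of MCC. The matching shares of all genes are not given here, so these counts are a description only. The spread of a gene over its 4 group means had a median of 0.60 log2 in these genes and 0.41 in all 7945 genes tested, with 13 members under 0.5 and 8 over 1.

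Cell division genes, a list also chosen with earlier results of these data known, ran the other way over the same arrays. The median of 23 such genes was 3.97 ± 0.16 at the low and 5.78 ± 0.34 at the high dose of 102S, and 6.74 ± 0.15 at the low and 7.13 ± 0.14 at the high dose of MCC. Mki67, which encodes a protein of cycling cells, read 3.82, 3.88 and 4.17 on the low-dose 102S arrays, 7.60, 8.67 and 8.56 on the high-dose 102S arrays, 9.31, 9.46 and 9.69 on the low-dose MCC arrays and 9.91, 9.99 and 10.18 on the high-dose MCC arrays. Its arrays did not overlap between any of the groups. The group of 0.2 µg of 102S thus had the highest ribosome biogenesis median and the lowest division median, and the group of 2 µg of MCC the reverse. In bulk samples such as these, fewer cells of a kind and less RNA per cell cannot be told apart. In their summed level, markers of CD8 T and NK cells followed the order of the ribosome biogenesis genes. The log2 of their summed level over 5 genes was 9.59 to 9.70 at the low and 8.88 to 8.93 at the high dose of 102S, and 8.35 to 8.64 at the low and 8.02 to 8.33 at the high dose of MCC, with Cd8a at 5.18 to 6.42, Cd8b1 at 7.03 to 8.31, Klrd1 at 4.20 to 8.84 and Ncr1 at 2.50 to 3.42 over the 12 arrays. Of the 4 tested, Klrd1 was called lower with MCC at both doses and with the dose of MCC, and Prf1 was called lower with MCC at 0.2 µg and with the dose of 102S. Cd8a and Cd8b1 were called in no comparison. They differed by -0.04 and 0.01 log2 with the dose of MCC and by -0.19 and -0.22 with that of 102S. Between peptides they differed by -0.23 and -0.24 at 2 µg and by -0.38 and -0.47 at 0.2 µg. The log2 summed level of 4 B cell markers lay between 10.5 and 11.6, with its highest values at the low dose of 102S, and most of it was Ighm, at 10.41 to 11.53. The 2 tested B cell markers went opposite ways with MCC at 0.2 µg. Ighm was called lower there, at -0.98 log2, and Cd79b higher, at 1.26. With the dose of 102S, Ighm was called lower, at -0.45, and Cd79b was not called, at 0.39. What part these cells have in the result was not tested.

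**Figure D1:**
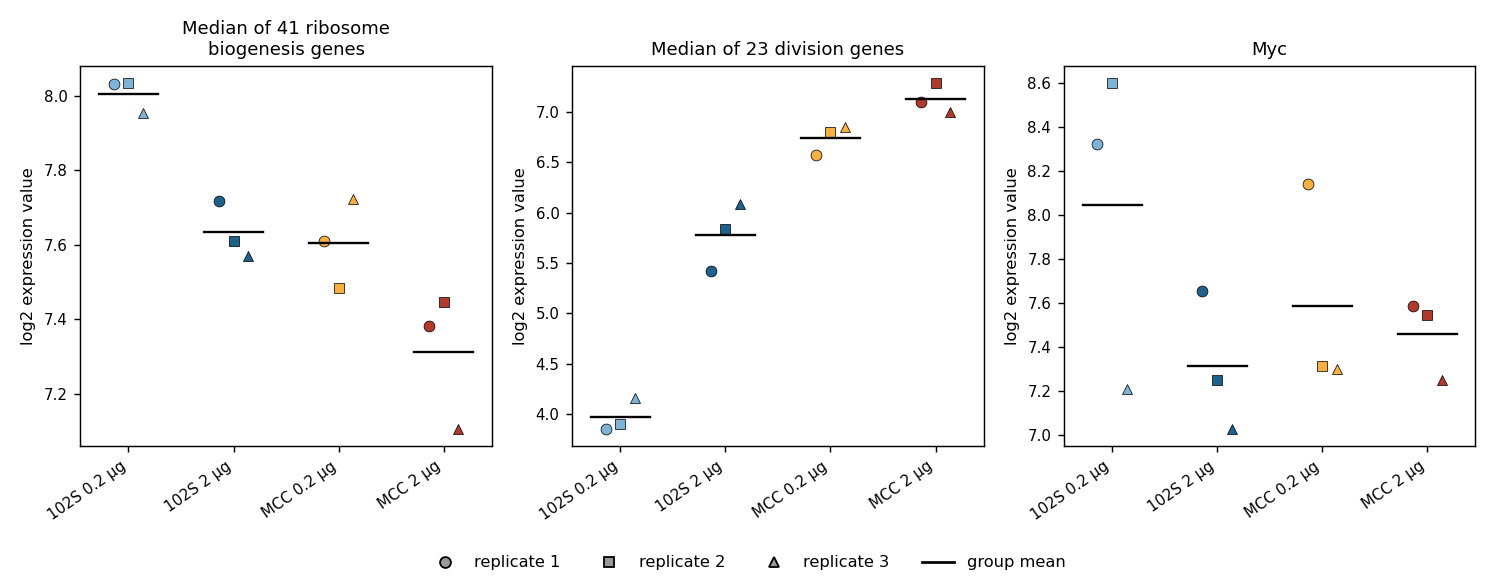
Each point is 1 array and each panel a measure in log2 signal for the 4 peptide and dose groups, with a bar at the mean of 3 arrays. The median of the 41 ribosome biogenesis genes is highest with 0.2 µg of 102S and lowest with 2 µg of MCC, the median of 23 division genes has the opposite order, and Myc overlaps between the groups.

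The first comparison asked how the dose of the strong peptide mattered. With 2 µg against 0.2 µg of MCC, 5 of 41 genes were lower and none higher in the limma fit, where 1.21% of all 7945 genes were called lower and 0.717% higher, 1.93% in all. The genes that fell were Gnl3, Nop10, Nop56, Mybbp1a and Wdr75, by 1.60-fold to 2.00-fold. The difference was negative in 37 genes, and its median was -0.36 log2 against -0.03 in all genes tested. At an unadjusted p under 0.05, 20 genes were lower and none higher, against 10.4% and 7.65% of all genes. The high-dose arrays lay wholly below the low-dose arrays in 20 members, a pattern found in 11.3% of all genes, and wholly above in none, against 7.87%. Of 23 division genes 1 was called higher, and their median difference was 0.55. The call count was 6 with the male-type arrays alone and 0 without the 3 wide-gap arrays, which leaves 1 array of 0.2 µg of MCC. It was 11 without replicate 1 of 0.2 µg of MCC, 2 without replicate 3 and 3 without replicate 2 of that group, 3 without any single array of 2 µg of MCC, and 8 without replicate 3 of 0.2 µg of 102S. Here and in the comparisons below, the share of all genes called in such refits is not given. A change in count therefore cannot be read as particular to the members.

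For the weak peptide the dose contrast gave a similar number of lower genes on a different background. With 2 µg against 0.2 µg of 102S, 6 of 41 genes were lower and none higher, where 0.529% of all genes were called lower and 3.3% higher, 3.83% in all. These were Gnl3, Grwd1, Mybbp1a, Wdr75, Wdr43 and Gar1, which fell by 1.46-fold to 1.54-fold. The difference was negative in 38 genes, with a median of -0.37 log2 against 0.01 in all genes tested, and 19 genes were lower and none higher at an unadjusted p under 0.05, against 4.2% and 10.3% of all genes. In 15 members the arrays of the higher dose lay wholly below those of the lower, as in 8.02% of all genes, and in none wholly above, as in 14.8%. Over the same arrays 20 of 23 division genes rose, with a median difference of 1.62, so most genes called in this contrast went up while the called ribosome biogenesis genes went down. None was called with the male-type arrays alone, which are 2 against 2, and 6 were called without the 3 wide-gap arrays, where Gnl3, Wdr43 and Wdr75 were lost and Fbl, Ddx21 and Rrp12 gained. The count was 0 without replicate 2 of 0.2 µg of 102S or any single array of 2 µg of 102S, 1 without replicate 1 of 0.2 µg of 102S, 2 without replicate 2 of 0.2 µg of MCC and 3 without replicate 2 of 2 µg of MCC.

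**Figure D2:**
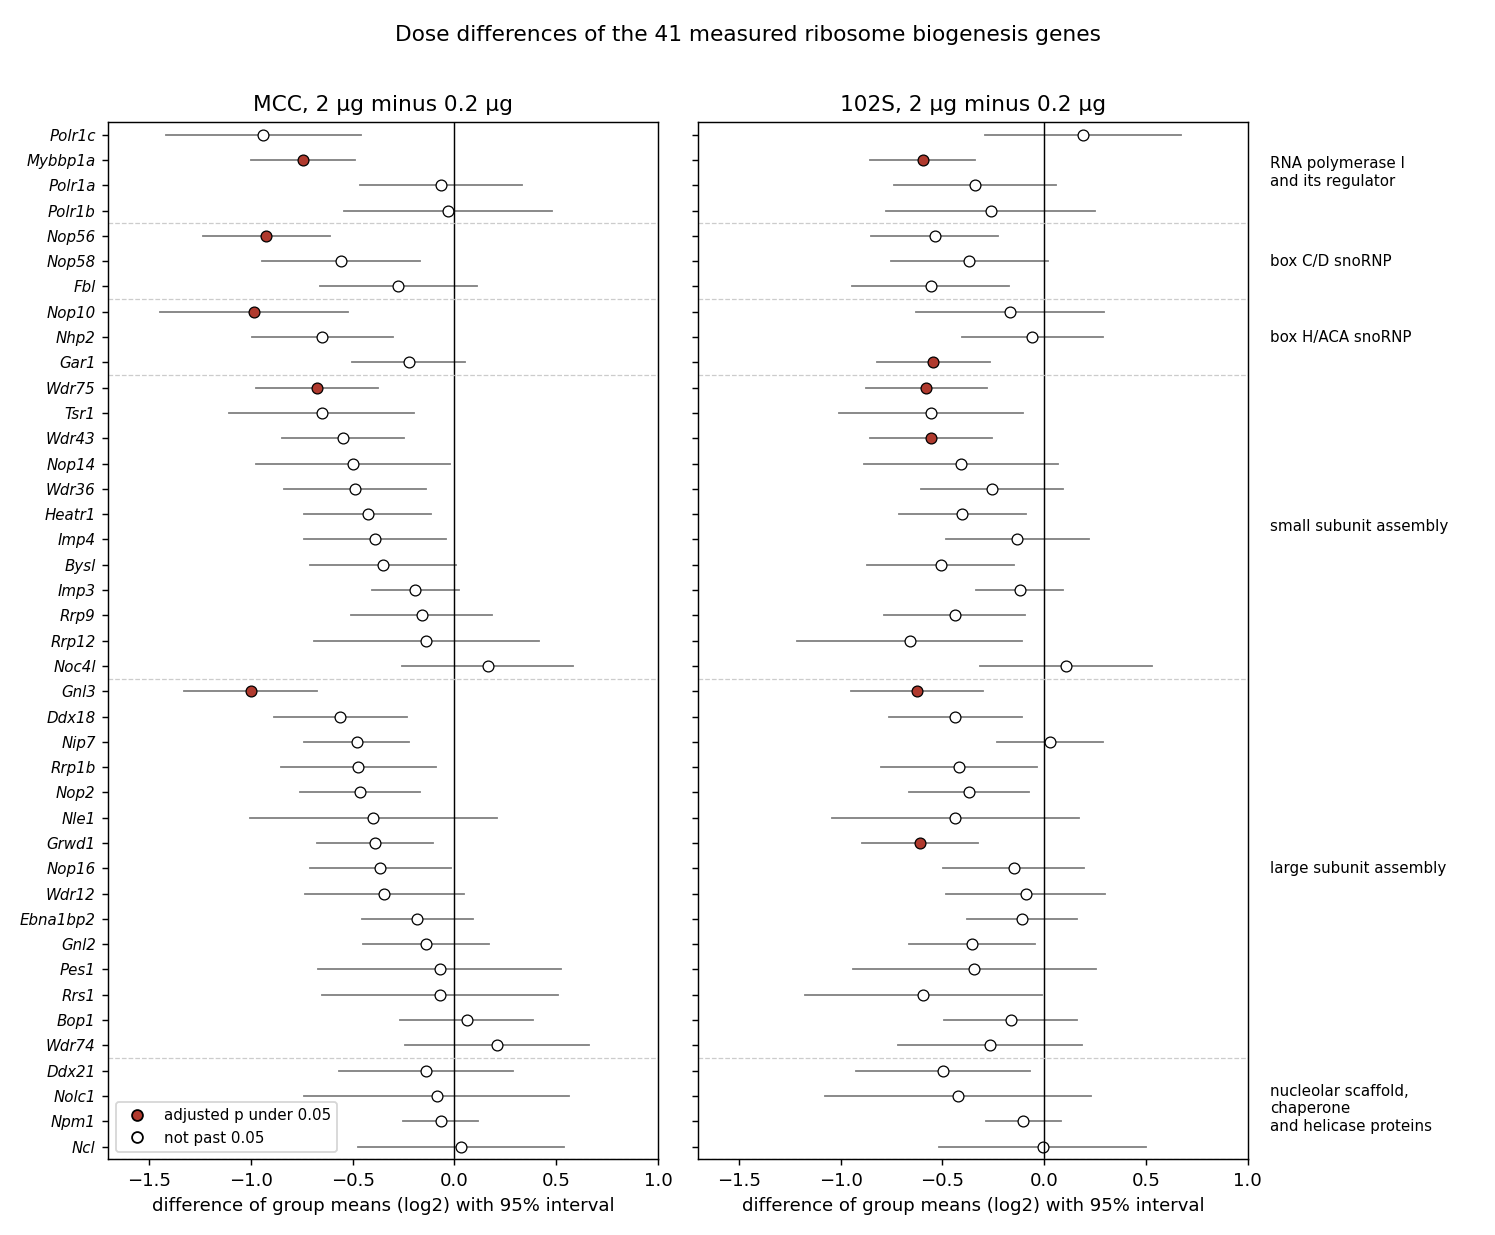
Points give the log2 difference of 2 µg minus 0.2 µg for each of the 41 genes, with 95% confidence intervals of the limma fit, for MCC and for 102S, and genes are grouped by role. Called genes are red, 5 for MCC and 6 for 102S, and every one lies left of 0, while Noc4l is right of 0 for both peptides.

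The peptides were then compared at the same dose, on the same arrays that enter the dose comparisons, so the calls of the comparisons are not independent. At 2 µg, MCC gave lower levels than 102S of 6 genes and a higher level of none, where 6.83% of all genes were called lower and 4.43% higher, 11.3% in all. Nop10, Ddx18, Nop56, Gnl3, Wdr43 and Wdr75 were the 6, lower by 1.41-fold to 1.83-fold. The median difference was -0.24 log2 against -0.05 in all genes, 31 differences were negative, and in 17 members the MCC arrays lay wholly below the 102S arrays against 21.2% of all genes, and in 2 wholly above, against 12.5%. At an unadjusted p under 0.05, 13 members were lower and 1 higher, against 16.2% and 8.6% of all genes. The count of calls was 3 with male-type arrays alone and 12, of which 1 higher, without the 3 wide-gap arrays. It was 2 without replicate 3 of 2 µg of 102S and 3 without replicate 3 of 2 µg of MCC.

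At 0.2 µg, 3 genes were lower with MCC than with 102S and 1 was higher, where 7.02% of all genes were called lower and 9.09% higher, 16.1% in all. In this fit the share of members called lower lay near this background. Ddx18, Wdr43 and Grwd1 were lower, by 1.34-fold to 1.56-fold, and Nhp2 was higher, by 1.51-fold. The median difference was -0.19 log2 against -0.01 in all genes. At an unadjusted p under 0.05, 16 members were lower and 3 higher, against 15.5% and 14.9% of all genes. In 12 members the MCC arrays lay wholly below the 102S arrays, against 15.6% of all genes, and in 2 wholly above, against 15.6%. All 23 division genes were called higher here, with a median difference of 2.67. With male-type arrays alone 2 genes were lower and 2 higher, and none was called without the 3 wide-gap arrays. The count was 0 without replicate 2 of 0.2 µg of MCC, 1 without its replicate 3 and 7 without its replicate 1, 1, 2 and 10 without replicates 1, 2 and 3 of 0.2 µg of 102S, and 9 without replicate 3 of 2 µg of MCC.

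Whether the dose effect differed between the peptides was tested as an interaction, in which the peptide difference at the low dose is taken from that at the high dose, MCC minus 102S in each. No member was called by limma, where 0.843% of all genes were called lower and 0.0629% higher, 0.906% in all, and 4 members were lower and none higher at an unadjusted p under 0.05, where 7.68% of all genes were lower and 1.96% higher. The share of members at that threshold is near the background. The 4 were Polr1c, at -1.13 ± 0.31 log2 with a 95% confidence interval of -1.81 to -0.45 and an adjusted p of 0.186, Nip7, at -0.51 ± 0.17 with -0.88 to -0.14, Nop10, at -0.82 ± 0.30 with -1.47 to -0.16, and Nhp2, at -0.59 ± 0.23 with -1.08 to -0.10. The median over the 41 genes was -0.02 log2 against -0.05 in all genes. The dose contrasts of the peptides share no array, and 35 genes were negative in both, Polr1c and Nip7 for MCC only, Bop1, Wdr74 and Ncl for 102S only, and Noc4l in neither. Without replicate 1 of 0.2 µg of MCC a single member, Polr1c, was called.

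**Figure D3:**
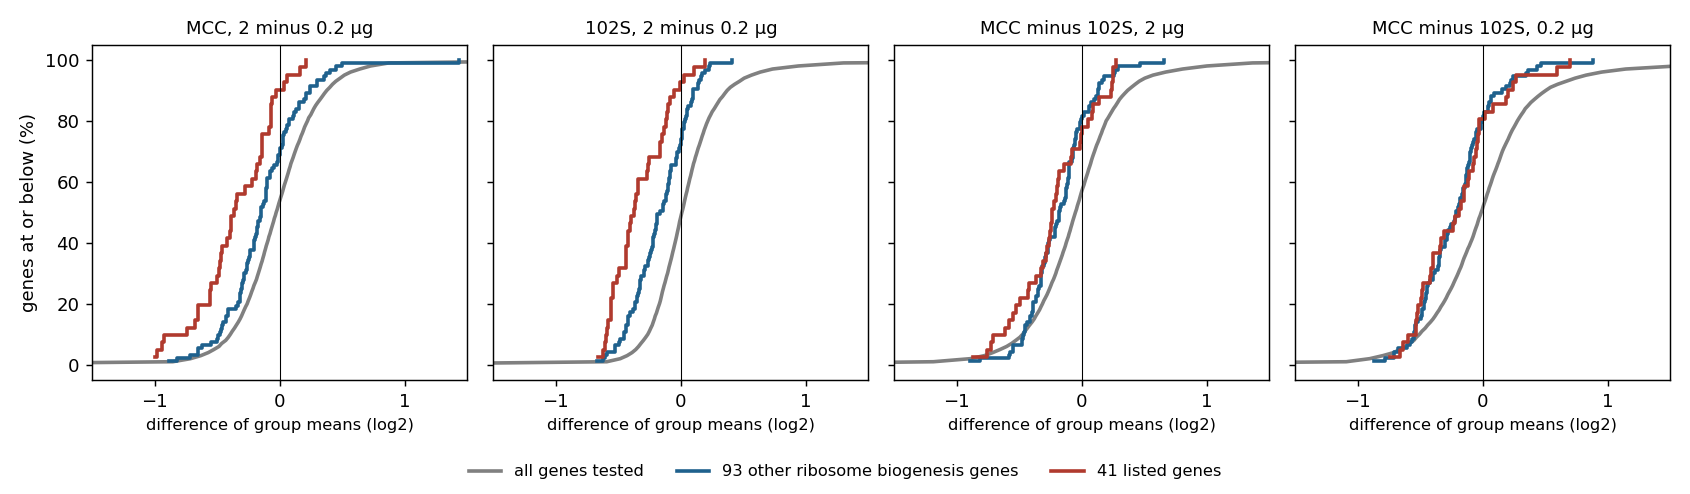
Cumulative curves show the share of genes at or under each log2 difference, 1 panel for each of the 4 pairwise comparisons, for the 41 ribosome biogenesis genes, 93 other biogenesis genes and all 7945 genes tested. The medians of the members lie left of those of all genes in these 4 panels, at -0.36 and -0.37 in the dose comparisons against -0.03 and 0.01. Because the members were chosen with earlier results of these data known, this is a description and not a test.

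RNA polymerase I and its regulator come first in the pathway. Mybbp1a, a nucleolar Myb-binding protein that represses polymerase I and takes part in processing of the precursor, read 9.37, 9.51 and 9.63 on the low-dose 102S arrays, 8.87, 8.92 and 8.93 on the high-dose 102S arrays, 9.09, 9.30 and 9.46 on the low-dose MCC arrays and 8.61, 8.59 and 8.42 on the high-dose MCC arrays. The high dose of each peptide lay wholly below its low dose. The dose difference was -0.74 ± 0.12 log2 for MCC, a 1.68-fold difference with an adjusted p of 0.00824, and -0.60 ± 0.12 for 102S, 1.51-fold with an adjusted p of 0.0144. A dimmer Mybbp1a probe set was called in neither, at 0.29 ± 0.41 and -0.73 ± 0.41. Polr1c, a subunit shared by polymerases I and III, read 8.49, 8.60 and 9.15 on the low-dose 102S arrays, 8.74, 8.92 and 9.16 on the high-dose 102S arrays, 8.97, 9.61 and 9.77 on the low-dose MCC arrays and 8.48, 8.69 and 8.36 on the high-dose MCC arrays. With MCC the high dose lay below the low dose on every array, with a difference of -0.94 ± 0.22 and an adjusted p of 0.0554, just short of the call, while for 102S it was 0.19 ± 0.22. Polr1a, the largest catalytic subunit, differed by -0.07 ± 0.18 with the dose of MCC and -0.34 ± 0.18 with that of 102S, and was called in no comparison. Polr1b, the other catalytic subunit, had one of the dimmest probe sets among the members and read 5.61, 5.71 and 4.78 on the low-dose 102S arrays, 5.24, 5.00 and 5.08 on the high-dose 102S arrays, 5.50, 5.00 and 5.16 on the low-dose MCC arrays and 5.34, 5.00 and 5.22 on the high-dose MCC arrays, overlapping between all groups.

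Box C/D ribonucleoproteins guide methylation of the ribosomal RNA. Nop56, a core scaffold protein of these particles, read 9.32, 9.41 and 9.55 on the low-dose 102S arrays, 8.91, 8.67 and 9.09 on the high-dose 102S arrays, 8.88, 9.02 and 9.36 on the low-dose MCC arrays and 8.20, 8.21 and 8.09 on the high-dose MCC arrays. The arrays of 2 µg of MCC lay below all other 9. Nop56 fell by 1.90-fold with the dose of MCC, -0.92 ± 0.14 log2 with an adjusted p of 0.00748, and was lower with MCC than with 102S at 2 µg, at -0.72 ± 0.14, adjusted p 0.00756. The dose difference of 102S was -0.54 ± 0.14 with an adjusted p of 0.0724. The call at 2 µg and that with the dose of MCC held in all 12 fits that left out 1 array, and the latter was lost without the 3 wide-gap arrays, at an adjusted p of 0.154. Its partner Nop58 had group means of 8.89 ± 0.28, 8.52 ± 0.16, 8.82 ± 0.24 and 8.26 ± 0.24 in the order low-dose 102S, high-dose 102S, low-dose MCC and high-dose MCC, which is kept for all group means below. Fbl, the methyltransferase fibrillarin, had 9.97 ± 0.29, 9.41 ± 0.25, 9.93 ± 0.25 and 9.66 ± 0.16. Neither was called in any comparison.

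Box H/ACA ribonucleoproteins guide pseudouridylation and share their proteins with telomerase. The 3 measured genes, Nop10, Nhp2 and Gar1, all had negative dose differences, and with MCC the high-dose arrays of each lay wholly below the low-dose arrays. Their differences with the dose of MCC were -0.98 ± 0.21, -0.65 ± 0.16 and -0.23 ± 0.13 log2, of which that of Nop10 was called. Nop10 read 11.20, 11.35 and 11.83 on the low-dose 102S arrays, 11.07, 11.29 and 11.52 on the high-dose 102S arrays, 10.96, 11.47 and 11.80 on the low-dose MCC arrays and 10.32, 10.65 and 10.30 on the high-dose MCC arrays. The 2 µg MCC arrays were below the other 9, and the other 3 groups overlapped. Nop10 fell with the dose of MCC, 1.98-fold with an adjusted p of 0.0399, and was lower with MCC than with 102S at 2 µg, at -0.87 ± 0.21, adjusted p 0.0219, while its difference with the dose of 102S was -0.17 ± 0.21. Its other tested probe set was called in the same direction in both. The call of Nop10 with the dose of MCC and that of Gar1 with the dose of 102S were each lost in 8 of the 12 fits that left out 1 array. Nhp2 read 9.04, 9.01 and 9.42 on the low-dose 102S arrays, 8.98, 9.11 and 9.20 on the high-dose 102S arrays, 9.40, 9.92 and 9.93 on the low-dose MCC arrays and 9.11, 9.21 and 8.98 on the high-dose MCC arrays. It stood highest with 0.2 µg of MCC, although 1 of those arrays, at 9.40, fell just under the highest array of 0.2 µg of 102S, at 9.42. The MCC minus 102S difference at 0.2 µg was 0.60 ± 0.16 with an adjusted p of 0.0262, and Nhp2 was the only member called higher in any comparison. Its 2 highest arrays, replicates 2 and 3 of 0.2 µg of MCC, are among the 3 wide-gap arrays, and the call was lost without those 3. Gar1 read 8.50, 8.32 and 8.14 on the low-dose 102S arrays, 7.84, 7.69 and 7.79 on the high-dose 102S arrays, 8.43, 8.21 and 8.12 on the low-dose MCC arrays and 7.97, 8.0 and 8.10 on the high-dose MCC arrays. The 2 µg 102S arrays lay below all 9 others, and Gar1 fell with the dose of 102S, at -0.55 ± 0.13, 1.46-fold with an adjusted p of 0.0378.

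**Figure D4:**
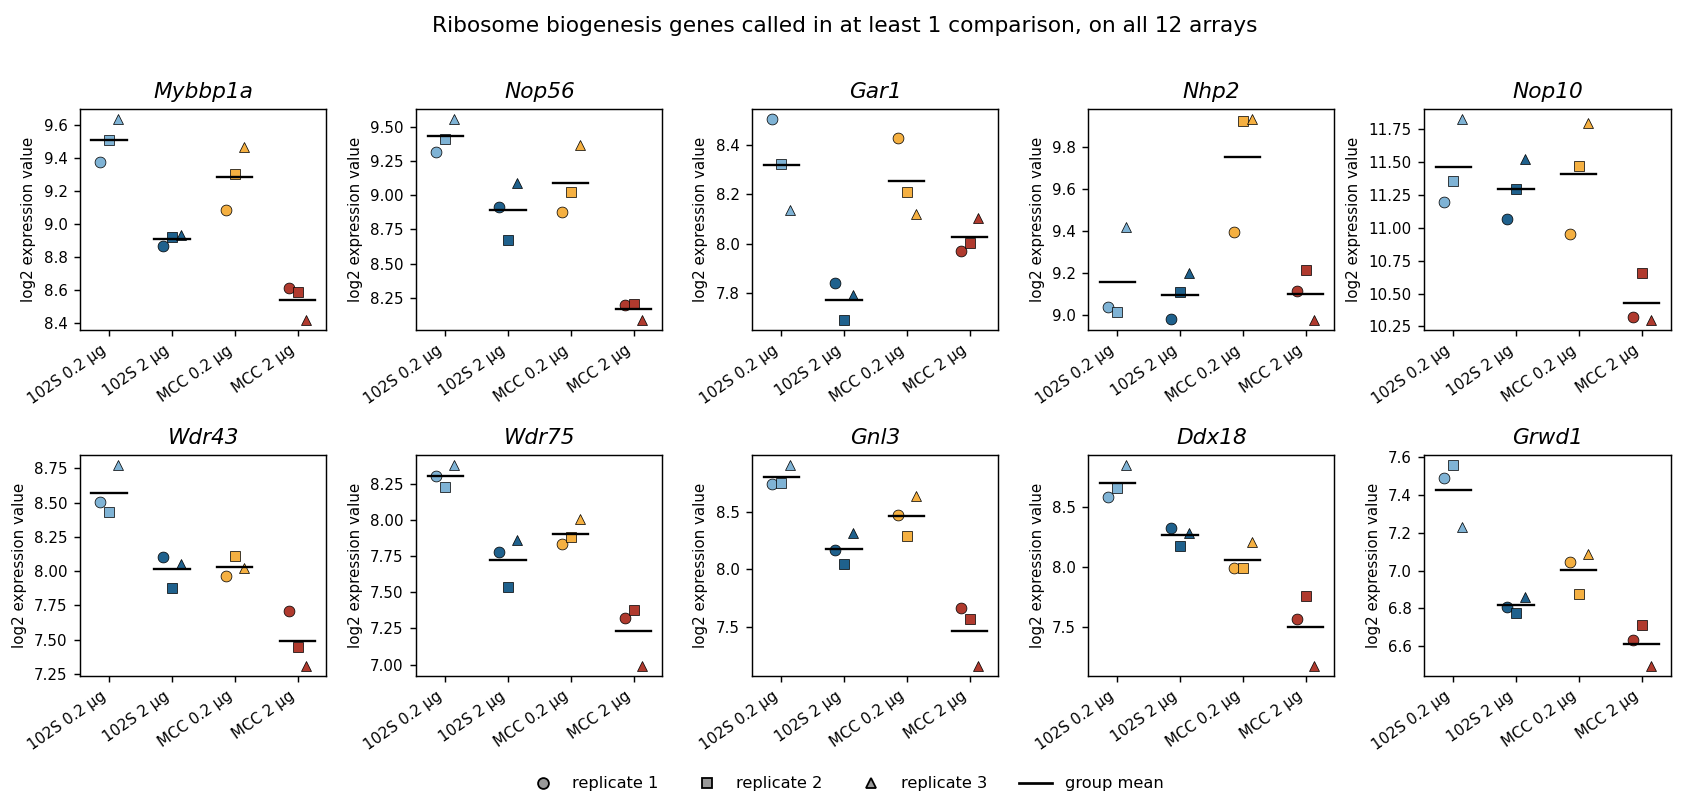
Each panel shows 1 of the 10 ribosome biogenesis genes called in at least 1 comparison, with log2 signal on the vertical axis, a point per array and a bar at the mean of 3 arrays for each of the 4 groups. Gnl3, Nop56, Mybbp1a and Wdr75 are lowest on the 3 arrays of 2 µg of MCC, whereas Gar1 is lowest with 2 µg of 102S and Nhp2 highest with 0.2 µg of MCC.

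Small subunit assembly factors formed a group of 12. Of these, 1 fell with the dose of MCC and 2 with the dose of 102S. With MCC against 102S, 2 were lower at 2 µg and 1 at 0.2 µg. In all genes tested, 1.21%, 0.529%, 6.83% and 7.02% were called lower in that order, and the 1 call at 0.2 µg lay near this background. Differences were negative in 11, 11, 10 and 11 of the 12, against 4281, 3864, 4532 and 4098 of all 7945 genes. The called genes of the 12 were Wdr43 and Wdr75, which belong with Heatr1 to the complex that first binds the growing precursor RNA. Wdr75 read 8.30, 8.23 and 8.38 on the low-dose 102S arrays, 7.78, 7.54 and 7.86 on the high-dose 102S arrays, 7.84, 7.88 and 8.0 on the low-dose MCC arrays and 7.32, 7.38 and 6.99 on the high-dose MCC arrays. Each high-dose group lay wholly below its low-dose group. Wdr75 fell with the dose of each peptide, with differences of -0.68 ± 0.14 log2 for MCC, 1.60-fold with an adjusted p of 0.0293, and -0.58 ± 0.14 for 102S, 1.49-fold with an adjusted p of 0.0391. Wdr43, whose window holds an E-box as printed above, read 8.50, 8.43 and 8.78 on the low-dose 102S arrays, 8.10, 7.88 and 8.06 on the high-dose 102S arrays, 7.97, 8.11 and 8.03 on the low-dose MCC arrays and 7.71, 7.45 and 7.31 on the high-dose MCC arrays. Doses of the same peptide did not overlap, nor did peptides at the same dose. The calls were -0.56 ± 0.14 with the dose of 102S, adjusted p 0.0498, -0.52 ± 0.14 between peptides at 2 µg, adjusted p 0.031, and -0.54 ± 0.14 at 0.2 µg, adjusted p 0.0217, while the dose difference of MCC of -0.55 ± 0.14 had an adjusted p of 0.0738. Several Wdr43 and Wdr75 calls were lost when single arrays were left out.

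Heatr1, the third protein of that complex in the list, differed by -0.43 ± 0.14 log2 with the dose of MCC and -0.40 ± 0.14 with that of 102S, and was not called. Tsr1, a GTPase-like factor of late small subunit maturation, had group means of 7.79 ± 0.34, 7.23 ± 0.28, 7.30 ± 0.20 and 6.65 ± 0.25, a wide span with no call. Nop14 had 7.48 ± 0.20, 7.08 ± 0.18, 6.96 ± 0.19 and 6.47 ± 0.48, and its binding partner Noc4l 7.05 ± 0.41, 7.16 ± 0.18, 7.13 ± 0.18 and 7.29 ± 0.09. Nop14 was highest with low-dose 102S and lowest with high-dose MCC, and Noc4l the reverse, with neither gene called. Imp3, Imp4, Wdr36, Rrp9, Bysl and Rrp12, which act in the same pre-ribosome or in its later steps, were not called, with dose differences from -0.49 for Wdr36 to -0.14 for Rrp12 with MCC and from -0.66 for Rrp12 to -0.12 for Imp3 with 102S.

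Large subunit assembly factors were the biggest group, with 15 genes. Of these, 1 fell with the dose of MCC, 2 with the dose of 102S, and 2 were lower with MCC at each dose. In all genes tested, 1.21% were called lower with the dose of MCC and 0.529% with that of 102S. Between peptides, 6.83% were called lower at 2 µg and 7.02% at 0.2 µg. Gnl3, the GTPase nucleostemin, read 8.74, 8.75 and 8.91 on the low-dose 102S arrays, 8.16, 8.05 and 8.32 on the high-dose 102S arrays, 8.47, 8.29 and 8.63 on the low-dose MCC arrays and 7.66, 7.57 and 7.16 on the high-dose MCC arrays. The arrays of 2 µg of MCC were lowest and those of 0.2 µg of 102S highest, and no array of a high dose reached the low dose of its peptide. Gnl3 fell with the dose of MCC, a difference of -1.0 ± 0.15 log2 or 2.00-fold with an adjusted p of 0.00639, and with the dose of 102S, -0.62 ± 0.15 or 1.54-fold with an adjusted p of 0.0428. It was also lower with MCC than with 102S at 2 µg, at -0.71 ± 0.15, adjusted p 0.0103. The call with the dose of MCC held in all 12 fits that left out 1 array but not without the 3 wide-gap arrays, where the adjusted p was 0.0848, and the call with the dose of 102S was lost in 8 of the 12. Its relative Gnl2, also a nucleolar GTPase, differed by -0.14 ± 0.14 and -0.35 ± 0.14 in the dose comparisons and was not called.

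Ddx18, a helicase of large subunit assembly, read 8.59, 8.66 and 8.85 on the low-dose 102S arrays, 8.33, 8.18 and 8.28 on the high-dose 102S arrays, 7.99, 7.99 and 8.21 on the low-dose MCC arrays and 7.57, 7.76 and 7.18 on the high-dose MCC arrays. It was lower with MCC at both doses, with a difference of -0.76 ± 0.15 log2 at 2 µg, 1.70-fold with an adjusted p of 0.00741, and of -0.64 ± 0.15 at 0.2 µg, 1.56-fold with an adjusted p of 0.0144. No MCC array reached the 102S arrays of the same dose. The call at 2 µg was lost with the male-type arrays alone, at an adjusted p of 0.0556. The call of Ddx18 at 0.2 µg was also lost with the male-type arrays alone, and without replicate 2 of 0.2 µg of MCC. Grwd1, a histone-binding WD repeat protein with an E-box window printed above, read 7.49, 7.56 and 7.23 on the low-dose 102S arrays, 6.81, 6.78 and 6.86 on the high-dose 102S arrays, 7.04, 6.88 and 7.09 on the low-dose MCC arrays and 6.63, 6.71 and 6.50 on the high-dose MCC arrays. It fell with the dose of 102S, at -0.61 ± 0.13, 1.53-fold with an adjusted p of 0.0231, and was lower with MCC at 0.2 µg, at -0.42 ± 0.13, adjusted p 0.0492, a call lost without any of 10 of the 12 arrays in turn.

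The Pes1, Bop1 and Wdr12 proteins form a complex needed for processing of large subunit RNA, and none of them was called. Their dose differences were -0.07 ± 0.27, 0.06 ± 0.15 and -0.34 ± 0.18 log2 with MCC and -0.34 ± 0.27, -0.16 ± 0.15 and -0.09 ± 0.18 with 102S. Nip7, which binds pre-ribosomal RNA, read 8.68, 8.68 and 8.48 on the low-dose 102S arrays, 8.62, 8.68 and 8.62 on the high-dose 102S arrays, 8.73, 8.80 and 8.87 on the low-dose MCC arrays and 8.38, 8.48 and 8.09 on the high-dose MCC arrays. The high-dose MCC arrays lay below all 9 others, narrowly so beside the lowest array of low-dose 102S. Its difference with the dose of MCC was -0.48 ± 0.12, adjusted p 0.0691. Nle1, an assembly factor with the dimmest probe set among the members, read 4.88, 5.24 and 4.53 on the low-dose 102S arrays, 4.53, 4.30 and 4.51 on the high-dose 102S arrays, 4.58, 4.25 and 5.47 on the low-dose MCC arrays and 4.55, 4.38 and 4.18 on the high-dose MCC arrays, values close to the filter on low signal of 4.48, and was not called. Nop2, Nop16, Ebna1bp2, Rrs1, Wdr74 and Rrp1b were not called, with dose differences from -0.47 for Rrp1b to 0.21 for Wdr74 with MCC and from -0.59 for Rrs1 to -0.11 for Ebna1bp2 with 102S.

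Nucleolar scaffold, chaperone and helicase proteins made a group of 4, and limma called none of them in any comparison. At an unadjusted p under 0.05, 1 was higher with MCC at 2 µg, 1 was higher and 1 lower at 0.2 µg, 1 was lower with the dose of 102S and none passed with that of MCC. In all genes 8.6% were higher at 2 µg, 14.9% higher and 15.5% lower at 0.2 µg and 4.2% lower with the dose of 102S. Npm1, the histone chaperone nucleophosmin, had the brightest probe set among the members and read 12.40, 12.36 and 12.17 on the low-dose 102S arrays, 12.27, 12.22 and 12.12 on the high-dose 102S arrays, 12.71, 12.48 and 12.45 on the low-dose MCC arrays and 12.45, 12.42 and 12.56 on the high-dose MCC arrays. Its dose differences were -0.07 ± 0.08 log2 with MCC, 95% confidence interval -0.25 to 0.12, and -0.10 ± 0.08 with 102S, -0.29 to 0.08. MCC arrays lay wholly above 102S arrays at both doses, by 0.27 ± 0.08 at 2 µg with an adjusted p of 0.0608 and 0.24 ± 0.08 at 0.2 µg with an adjusted p of 0.0821. Ncl, or nucleolin, read 11.28, 11.15 and 10.48 on the low-dose 102S arrays, 11.27, 10.88 and 10.74 on the high-dose 102S arrays, 11.68, 10.99 and 10.84 on the low-dose MCC arrays and 11.17, 11.18 and 11.25 on the high-dose MCC arrays. Its 4 tested probe sets did not give a single picture. The brightest differed by 0.03 ± 0.23 with the dose of MCC, another was called lower at -0.83 ± 0.15 with an adjusted p of 0.0179, and the other two differed by 1.20 ± 0.78 and -0.16 ± 0.11. Whether nucleolin was called lower with the dose of MCC therefore depended on the probe set, and no probe set was called higher. Nolc1, which escorts small nucleolar particles, and Ddx21, a helicase that binds ribosomal RNA, differed by -0.09 ± 0.30 and -0.14 ± 0.20 with MCC and by -0.42 ± 0.30 and -0.50 ± 0.20 with 102S.

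In all, 32 probe sets of the members were tested beside the representatives, those of nucleolin included, and none was called against the direction of a called representative. With the dose of MCC, 2 dimmer Grwd1 probe sets were called lower, at -1.02 ± 0.20 and -0.98 ± 0.19 log2, where the representative was -0.39 ± 0.13 and not called, and so was 1 Rrp1b probe set at -0.89 ± 0.19 beside -0.47 ± 0.18. Between peptides at 2 µg a Polr1a probe set was called lower at -0.67 ± 0.16, and at 0.2 µg a dim Wdr75 probe set at -0.90 ± 0.19. Counting every tested probe set gave 10 called with the dose of MCC in place of 5 genes.

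The pathway was also read through genes outside the list. Of 117 further biogenesis genes 93 were tested, and 2 fell with the dose of MCC, 1 with the dose of 102S, 7 were lower with MCC at 2 µg, and at 0.2 µg 8 were lower and 1 higher. All genes called made up 1.21% and 0.529% lower with the dose, 6.83% lower at 2 µg, and 7.02% lower and 9.09% higher at 0.2 µg, so most of these counts of calls lay near the background. At an unadjusted limma p under 0.05, 18 of the 93 were lower with the dose of MCC and 20 with that of 102S. In all genes these shares were 10.4% and 4.2%. Between peptides, 24 were lower with MCC at 2 µg and 30 at 0.2 µg, against 16.2% and 15.5%. At most 3 were higher in any of the 4. The median differences of the 93 genes were -0.15 and -0.17 log2 in the dose comparisons, between those of the members and those of all genes. Naf1, an assembly factor of box H/ACA particles, fell with the dose of MCC, at -0.82 ± 0.15 log2, with an adjusted p of 0.0175, as did Rrp15, at -0.72 ± 0.16, adjusted p 0.0444. Mphosph10, a scaffold protein of the small subunit pre-ribosome, fell with the dose of 102S, at -0.62 ± 0.15, adjusted p 0.0459, and was lower with MCC at 0.2 µg, at -0.79 ± 0.15, adjusted p 0.00433. Exosc1, a subunit of the RNA exosome, was lower with MCC at both doses, at -0.82 ± 0.14 at 2 µg and -0.61 ± 0.14 at 0.2 µg. Mak16, Exosc7 and Taf1a were also lower at 2 µg, with differences of -0.46, -0.46 and -0.89. Krr1 was lower at 0.2 µg, at -0.40, and Taf1d, a factor of polymerase I initiation, was higher there by 0.88 ± 0.16, adjusted p 0.00275.

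Myc itself, the factor whose motif was searched, was not called in any comparison. It read 8.33, 8.60 and 7.21 on the low-dose 102S arrays, 7.66, 7.25 and 7.03 on the high-dose 102S arrays, 8.14, 7.31 and 7.30 on the low-dose MCC arrays and 7.58, 7.55 and 7.25 on the high-dose MCC arrays. The groups overlapped, and replicate 3 of low-dose 102S, with the widest β-actin gap, read 7.21 against 8.33 and 8.60 on the other arrays of its group. The difference with the dose of 102S was -0.73 ± 0.33 log2, with a 95% confidence interval of -1.46 to -0.01 and an adjusted p of 0.377, and with the dose of MCC it was -0.12 ± 0.33, adjusted p 0.863. Among 9 tested genes of the Myc network, the Max partners Mxd4, Mxi1 and Mnt were called. Mxd4 was higher with MCC by 1.09 at 2 µg and 1.76 at 0.2 µg and rose with the dose of 102S by 1.22, Mxi1 was lower with MCC at 2 µg, at -0.84, and Mnt was lower with MCC at both doses, at -0.66 and -0.59.

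The widest contrast in the design, 2 µg of MCC against 0.2 µg of 102S, was chosen after the values were seen and carries no test. In 26 of 41 genes the arrays of 2 µg of MCC lay wholly below those of 0.2 µg of 102S, as in 22.7% of all genes, and in 1 wholly above, as in 18.4%. The median difference was -0.53 log2 against -0.05 in all genes. It was -1.34 for Gnl3, -1.26 for Nop56, -1.20 for Ddx18 and -1.14 for Tsr1, and 0.24 for Noc4l, 0.23 for Ncl and 0.17 for Npm1. Over the 4 pairwise comparisons above, 31 of the 41 genes were called in none, 2 in a single one, 5 in 2 and 3 in 3. Some of these comparisons share arrays, and the matching shares of all genes are not given here. Repeated calls therefore cannot be read as particular to the members.

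The 3 wide-gap arrays were set against the other arrays of their group. On replicate 3 of 0.2 µg of 102S, 29 of the 41 genes read lower than the mean of the group's other arrays, from -0.96 log2 for Pes1 to 0.61 for Polr1c, where 54.9% of all genes read lower. For 0.2 µg of MCC only replicate 1 remained to compare with. On replicate 2, 28 of the 41 genes read lower than on replicate 1, from -0.79 for Ddx21 to 0.64 for Polr1c, where 51.8% of all genes read lower. On replicate 3, 21 did, from -1.10 for Nolc1 to 0.88 for Nle1, a share like the 50.7% of all genes. The mean β-actin gap was 1.33 ± 0.88 at the low and 1.24 ± 0.41 at the high dose of 102S, and 1.62 ± 0.81 at the low and 0.63 ± 0.12 at the high dose of MCC, so it was lowest in the group where the ribosome biogenesis genes were lowest. With the gap as a covariate of the fit, 18 members were lower and 1 higher with MCC at 2 µg, 13 lower and 4 higher at 0.2 µg, 14 lower with the dose of MCC and 17 lower with the dose of 102S. The share of all genes called in that fit is not given here, so these counts cannot be read as particular to the members.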

How the data were processed

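Each of the 12 arrays gave log2 signals, deposited by the authors as 1 table of 22690 probe sets. Values ran from 1.86 to 14.7, from which the log2 scale was taken. The submitters' processing notes name GCOS 1.4. Background correction, summarisation and scaling are not given in the sources used here, and array medians differed by 0.089, so values were used as deposited.

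Gene symbols came from the platform annotation, and probe sets with several symbols named no gene. Affymetrix controls and probe sets with a mean under the 40th percentile (4.48) were left out. The other 13556 were fitted with limma 3.58.1 in R 4.3.3 (lmFit, eBayes with an intensity trend), with 4 group means over 12 arrays, 8 residual and 4.16 prior degrees of freedom, and Benjamini-Hochberg adjustment over all 13556. Tests were 2-sided with a threshold of 0.05. The fit was tested on simulated data. The precision rests on 3 arrays a group, with a median standard error of 0.16 log2 in the members.

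The members, the further biogenesis, division, Myc network and marker lists, and the tests were chosen with earlier results of these data known. Values of every array are given for the 3 called genes with the highest and the lowest difference in each comparison, the 4 with the smallest interaction p, the 2 brightest and 2 dimmest, and at least 1 gene of each role. Alternatives were another normalization, other filters, a replicate block, male-type arrays alone, a β-actin covariate, no trend, every probe set, the arrays of the groups compared only, and each array left out. Leaving out the 3 arrays with the widest β-actin gap was chosen after seeing the data.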

Additional observations from a re-analysis of the deposited data

How the results depend on the processing

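Over 462 gene results under the alternatives, 322 kept their call, 140 lost it and 0 reversed. The counts moved more. The replicate block gave 13 called members between peptides at 2 µg, 18 at 0.2 µg and 14 with the dose of MCC, against 6, 4 and 5 without it, and 1 for the interaction, Polr1c. Replicate numbers were not taken to pair arrays, since same-numbered arrays of replicate 2 correlated from -0.29 to 0.39 once group means were taken out. Those of replicate 1 correlated from 0.56 to 0.82 and those of replicate 3 from 0.22 to 0.66. Arrays of different numbers in different groups gave -0.80 to 0.51. In addition, 10 of 12 arrays matched their own number best, and replicate 1 was of female type in every group. These are hints of pairing from the data and not from the design. The β-actin covariate gave 19, 17, 14 and 17 in the 4 pairwise comparisons, in the order 2 µg, 0.2 µg, MCC and 102S, and 2 for the interaction. Quantile normalization gave 10 at 0.2 µg and 10 with the dose of MCC, and median centring 10 at 0.2 µg. Counting every probe set gave 10 with the dose of MCC, and no filter gave 2 with the dose of 102S. A fit to the arrays of the groups compared only gave 1 at 0.2 µg, 2 with the dose of MCC and 2 with that of 102S. Male-type arrays alone gave 3 at 2 µg and 0 with the dose of 102S. Without the 3 arrays with the widest β-actin gap the counts were 12 at 2 µg, 0 at 0.2 µg and 0 with the dose of MCC, the lone array of 0.2 µg of MCC being assumed to vary like the others. Leaving out 1 array gave 2 to 8 at 2 µg, 0 to 10 at 0.2 µg, 2 to 11 with the dose of MCC, 0 to 6 with that of 102S and 0 to 1 for the interaction. The cause of these changes was not tested. The share of all genes called under each alternative is not given here, so a change in count cannot be read as particular to the members. Arrays carry no read depth, and their number limits the precision.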
